A study of Rattus norvegicus with 16 samples.

Results

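The genes described here encode 3 subunits of the NMDA receptor (Grin1, Grin2a and Grin2b), 1 subunit of the AMPA receptor (Gria1), the alpha subunit of calcium/calmodulin-dependent protein kinase II (Camk2a) and the postsynaptic scaffold protein PSD-95 (Dlg4). They were taken as a fixed list of 6 Ensembl gene IDs: ENSRNOG00000011726 for Grin1, ENSRNOG00000033942 for Grin2a, ENSRNOG00000008766 for Grin2b, ENSRNOG00000045816 for Gria1, ENSRNOG00000018712 for Camk2a and ENSRNOG00000018526 for Dlg4. All 6 were among the 32754 IDs of the count table, and all 6 passed the filter on low counts that left 15035 genes for testing. The names come with the list, because the table holds IDs alone and the RefSeq gene table used here (assembly GRCr8) matched 0 of them. RNA was sequenced from bulk hippocampus of wild-type male Fischer-344 rats, an inbred strain used in aging research. There were 4 groups of 4 rats: old trained (20 months, exercise training), old sedentary (20 months), young trained (6 months, exercise training) and young sedentary (6 months). The training or sedentary period lasted 10 weeks in every group, and all rats went through behavioral tests before the tissue was taken.

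NMDA and AMPA receptors are glutamate-gated ion channels of the postsynaptic membrane of excitatory synapses. Every NMDA receptor contains GluN1, the product of Grin1, together with other subunits such as GluN2A (Grin2a) or GluN2B (Grin2b), and the choice between GluN2A and GluN2B sets how long the channel stays open and shifts from GluN2B to GluN2A during brain development. Calcium that enters through NMDA receptors activates CaMKII, which phosphorylates the AMPA receptor subunit GluA1 (Gria1), and PSD-95 (Dlg4) holds these receptors and their signalling partners at the synapse. In hippocampal pyramidal neurons NMDA receptors and CaMKII take part in a main form of long-term potentiation, a lasting strengthening of synapses studied as a cellular basis of memory.

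RefSeq promoter windows of build GRCr8, running from 250 bases before to 50 after an annotated gene start, were found for 3 of the 6 genes and are shown because these genes moved in the same direction with training in old rats. Capitals mark GGGCGG (the GC box), GCGNGGGCG (an Egr-type motif) and TGACG (the shared core of the cAMP response element), searched on both strands.
Grin1 (chr3:28528705-28529004, strand minus): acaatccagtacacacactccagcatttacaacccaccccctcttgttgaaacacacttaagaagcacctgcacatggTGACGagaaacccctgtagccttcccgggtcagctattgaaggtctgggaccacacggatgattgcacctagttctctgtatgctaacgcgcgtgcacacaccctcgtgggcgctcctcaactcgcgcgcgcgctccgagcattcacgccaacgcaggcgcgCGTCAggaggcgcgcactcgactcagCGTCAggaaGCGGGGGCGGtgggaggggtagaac
Camk2a (chr18:56648930-56649229, strand plus): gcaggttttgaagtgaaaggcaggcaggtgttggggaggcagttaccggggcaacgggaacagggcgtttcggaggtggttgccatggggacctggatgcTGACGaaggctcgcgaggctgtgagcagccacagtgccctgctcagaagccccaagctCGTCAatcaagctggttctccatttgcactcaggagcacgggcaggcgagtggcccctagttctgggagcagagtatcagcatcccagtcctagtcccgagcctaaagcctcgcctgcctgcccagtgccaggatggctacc
Dlg4 (chr10:55239534-55239833, strand plus): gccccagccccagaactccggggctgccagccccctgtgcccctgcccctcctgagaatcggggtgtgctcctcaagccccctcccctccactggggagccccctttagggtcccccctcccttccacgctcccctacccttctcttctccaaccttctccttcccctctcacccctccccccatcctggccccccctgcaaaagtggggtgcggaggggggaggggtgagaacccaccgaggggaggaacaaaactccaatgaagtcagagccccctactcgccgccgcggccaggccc
The Grin1 window holds 1 GGGCGG that overlaps 1 GCGNGGGCG, with first bases at positions 280 and 276 of the window, and 3 copies of TGACG. The Camk2a window holds 2 copies of TGACG, and none of the 3 motifs is in the Dlg4 window. The full cAMP response element TGACGTCA and the E-box CACGTG were searched as well and are in none of the 3 windows. Of 33469 promoter windows of the same length, 33.1% hold GGGCGG, 4.98% hold GCGNGGGCG, 21.2% hold TGACG, 1.83% hold TGACGTCA and 6.42% hold CACGTG. GC content was 59.7% for Grin1, 61.3% for Camk2a and 68.7% for Dlg4, against a median of 51.7% over all windows. These matches describe letters in the reference, and no binding was measured.

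Library totals ran from 8630396 to 14576687 counts, and the 6 genes had between 139 and 25947 counts per library, so the counting error of a single value was 8.48% at most. Levels are given as CPM, counts relative to the size of the library after scaling by TMM, which corrects for differences in library composition. They are not corrected for gene length, so levels are compared between libraries and not between genes. The libraries were spread along a first principal component that held 46.9% of the variance of all genes. On it the 4 old trained libraries lay between -28.4 and -18.9, old sedentary libraries 1, 2 and 4 between 49.7 and 55.9 and old sedentary library 3 at 12.7, the 4 young trained libraries between -39.8 and -22.6, and the 4 young sedentary libraries between 0.69 and 29.3. Old sedentary library 3 thus stands apart from its group, and the comparisons with that group, for training in old rats and aging in sedentary rats, are given with and without it. Which flow cell lane held which library is not stated in the labels, and the part of the lane in the results was not tested. In bulk tissue, fewer neurons and less RNA per neuron cannot be told apart, and markers of other cell types were not analysed because the IDs carry no symbols.

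Training was associated with higher levels of all 6 genes in old rats. The rise in old trained over old sedentary rats was 2.37-fold for Grin2a and 2.25-fold for Camk2a, 1.77-fold for Gria1, and 1.45-fold for Grin2b, 1.38-fold for Dlg4 and 1.27-fold for Grin1. All 6 passed edgeR's quasi-likelihood test, with adjusted p from 0.00295 to 0.0448 (Benjamini-Hochberg over 15035 genes). Over all genes tested 24.1% were called in this comparison, 11.5% as higher, and among the 8697 genes whose mean log2 CPM was 4 or more, as it was for the 6 genes, 16.1% were called higher. The median log2 fold change was 0.68 over the 6 genes and -0.01 over all genes. In young rats the same genes had positive log2 fold changes, from 0.14 to 0.62, but edgeR called 0 of 6, where 17.1% of all genes were called and 6.78% were called higher. At an unadjusted p below 0.05 there was 1 of the 6 genes, Gria1, where 33.4% of all genes were below it. The DESeq2 Wald test and limma voom also called 1 each, where they called 20.2% and 28.8% of all genes.

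**Figure D1:**
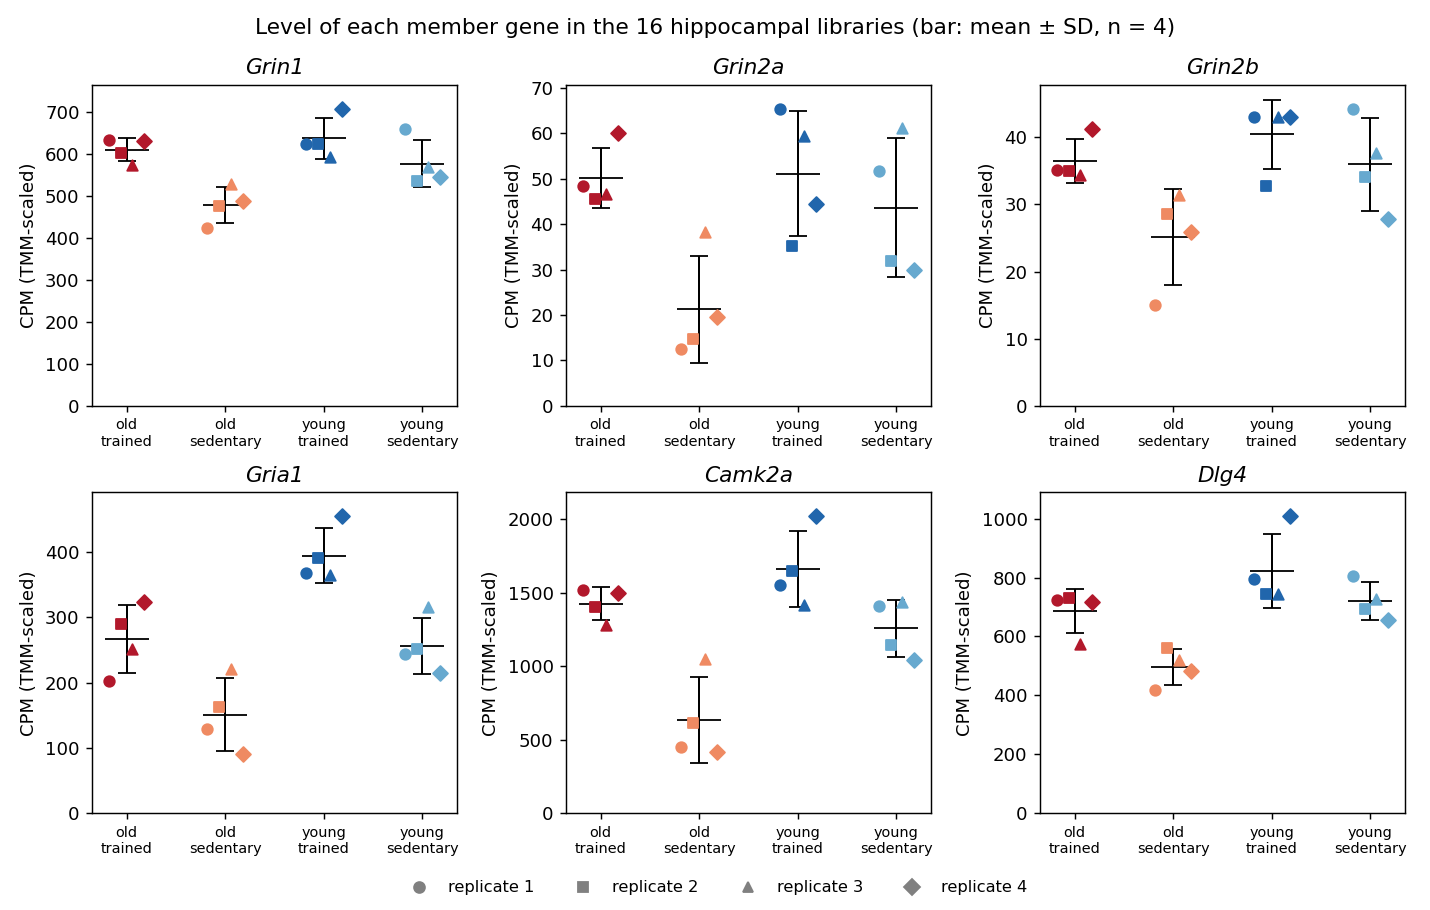
Level of each gene (CPM, vertical axis from 0) in every library, by group, with mean and SD (n = 4 each) as bars and marker shape for the replicate. Old sedentary libraries 1, 2 and 4 are below all old trained libraries for every gene, and old sedentary library 3 lies above the other old sedentary libraries for every gene except Dlg4.

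Grin1, which encodes the subunit common to all NMDA receptors, had an SD between 4.52% and 9.76% of the mean in the 4 groups. It stood at 633, 604, 575 and 632 CPM in the old trained libraries, against 425, 477, 529 and 488 CPM in the old sedentary libraries. In the young it stood at 625, 626, 595 and 709 CPM in trained and at 659.9, 537, 569 and 545 CPM in sedentary libraries. Every old trained library was above every old sedentary one, while the young groups overlapped. The log2 fold change with training was 0.35 (SE 0.08, edgeR adjusted p = 0.00736) in old rats, or 0.40 without old sedentary library 3, and 0.14 (SE 0.08, adjusted p = 0.241) in young rats.

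Grin2a, the subunit that predominates in mature forebrain NMDA receptors, differed more widely between old sedentary libraries than any other of the 6 genes. Its levels were 48.4, 45.7, 46.7 and 60.0 CPM in the old trained libraries, against 12.4, 14.8, 38.3 and 19.5 CPM in the old sedentary libraries. In young rats they were 65.5, 35.2, 59.4 and 44.6 CPM in trained and 51.7, 31.8, 61.2 and 29.9 CPM in sedentary libraries. The old groups did not overlap, and old sedentary library 3, at 38.3 CPM, was well above the other 3 of its group. The SD came to 55.1% of the mean in old sedentary rats, against 13.2% in old trained rats. The log2 fold change with training was 1.24 (SE 0.33, edgeR adjusted p = 0.0137) in old rats, and it was 1.69 without old sedentary library 3. In young rats it was 0.23, with a 95% interval from -0.44 to 0.91 (edgeR adjusted p = 0.635).

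Grin2b, the subunit that predominates before birth and stays expressed in the adult forebrain, had 35.2, 35.0, 34.4 and 41.3 CPM in the old trained libraries, against 15.05, 28.6, 31.4 and 25.9 CPM in the old sedentary libraries. Young trained libraries had 43.0, 32.8, 43.0 and 43.1 CPM and young sedentary libraries 44.3, 34.1, 37.7 and 27.8 CPM. The old groups did not overlap, and the young groups did. The log2 fold change with training in old rats was 0.53 (SE 0.18), and its edgeR adjusted p of 0.0448 was close to the threshold of 0.05. The call was lost without any single one of the 4 old trained libraries, old sedentary libraries 1, 2 or 4, young trained libraries 1 or 3, or young sedentary library 3, with adjusted p from 0.0506 to 0.111. It was also lost with scaling by library totals (adjusted p = 0.065) or upper quartiles (0.0531), with no filter on low counts (0.0669), with the replicate number as a block (0.0534), with 1 surrogate variable (0.0707) and in a fit to the libraries compared (0.0852). Without old sedentary library 3 the log2 fold change was 0.65 (edgeR adjusted p = 0.0158). Without old sedentary library 1, the lowest of all 16, the log2 fold change was 0.35 (adjusted p = 0.0901).

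The balance of NMDA receptor subunits was followed as the ratio of counts within a library, where scaling and gene length cancel between libraries. The ratio of Grin2a to Grin2b counts was between 1.30 and 1.45 in the 4 old trained libraries, against 0.518 to 1.22 in the old sedentary libraries. It was between 1.03 and 1.52 in young trained and between 0.934 and 1.62 in young sedentary libraries. The old trained ratios were thus all above the old sedentary ones, and the young groups overlapped. The difference in old rats was 0.79 on the log2 scale, a 1.73-fold higher ratio (exact permutation test, 2-sided, p = 0.0286, the smallest that 4 against 4 can give). Without old sedentary library 3 the log2 difference was 1.00. Over the 18 tests made on 3 ratios and 6 contrasts the adjusted p was 0.195, so it did not pass the correction. A p at this floor can pass over 18 tests only if many of them are as low, so 4 against 4 libraries could hardly decide the question.

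Grin2a relative to Grin1 was also higher in all old trained than in all old sedentary libraries. The ratio of counts lay between 0.0756 and 0.0950 in old trained libraries, against 0.0293 to 0.0723 in old sedentary libraries, a 2.03-fold higher geometric mean (exact permutation p = 0.0286, adjusted p = 0.195). Old sedentary library 3 held the highest ratio of its group here too, and without it the log2 difference was 1.30, against 1.02 with it. Grin2b relative to Grin1 differed by 0.23 on the log2 scale in old rats (exact permutation p = 0.257, adjusted p = 0.456), with ranges of 0.0555 to 0.0654 in old trained and 0.0354 to 0.0600 in old sedentary libraries, and by 0.30 without old sedentary library 3. In young rats the log2 differences of the 3 ratios lay between 0.034 and 0.11, with exact permutation p from 0.743 to 0.8. None of the 18 tests passed after adjustment, and the lowest adjusted p was 0.195.

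**Figure D2:**
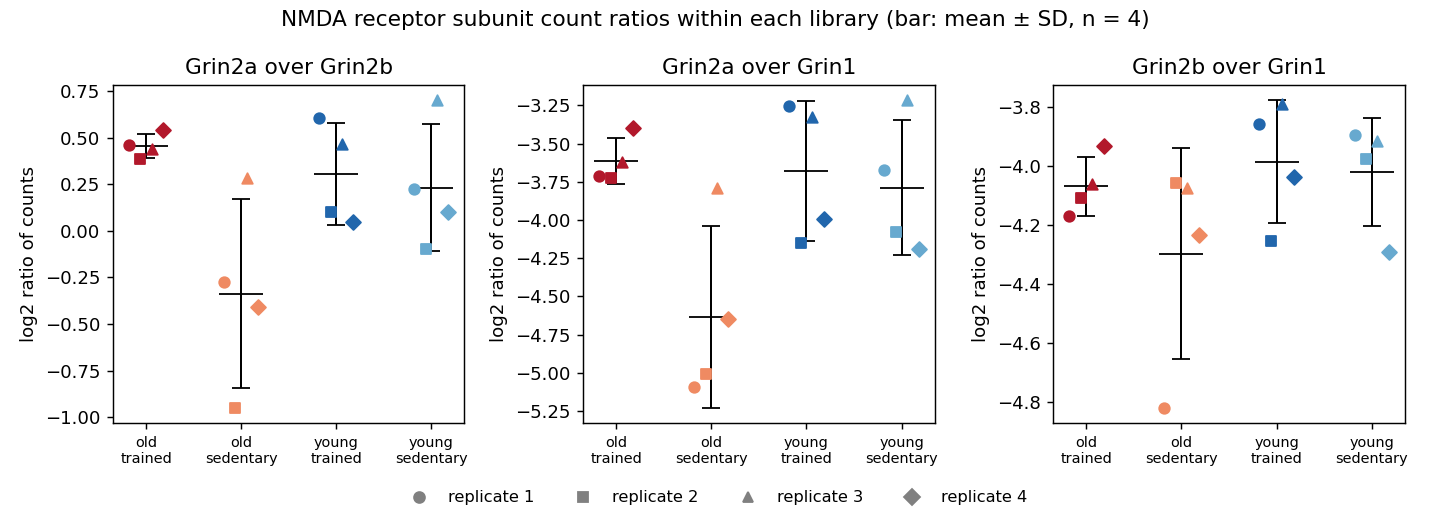
Log2 ratio of the counts of NMDA receptor subunits within each library (vertical axes, which do not start at 0), by group, with mean and SD (n = 4 each). The 4 old trained libraries lie above the 4 old sedentary libraries for Grin2a over Grin2b and for Grin2a over Grin1, and the groups overlap for Grin2b over Grin1.

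Gria1, the AMPA receptor subunit whose phosphorylation and insertion at synapses accompany potentiation, came nearest to a call in young rats. It had 202, 291, 251 and 323 CPM in the old trained libraries, against 129, 163, 221 and 90.5 CPM in the old sedentary libraries. In young rats it had 368, 390.3, 364 and 455 CPM in trained, against 244, 251, 316 and 214 CPM in sedentary libraries. All young trained libraries were above all young sedentary ones, the only 1 of the 6 genes without overlap in that comparison, where 12.7% of all genes lay apart in this direction. In old rats the groups overlapped, because old sedentary library 3, at 221 CPM, lay above old trained library 1. The log2 fold change with training was 0.82 (SE 0.22, edgeR adjusted p = 0.0134) in old rats, or 1.07 without old sedentary library 3, and 0.62 (SE 0.22, adjusted p = 0.0588) in young rats. In young rats edgeR's test passed on leaving out old trained library 1 (adjusted p = 0.0462), old sedentary library 3 (0.0213), old sedentary library 4 (0.0207) or young sedentary library 3 (0.043), and in a fit with the replicate number as a block (0.0385).

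Camk2a encodes the most abundant kinase subunit of the excitatory postsynaptic density and, in the forebrain, is made mainly in excitatory neurons. Its levels were 1519, 1402, 1278 and 1499.8 CPM in the old trained libraries, against 453, 611, 1051 and 414 CPM in the old sedentary libraries. Young trained libraries had 1549.9, 1644, 1417 and 2018 CPM and young sedentary libraries 1406, 1142, 1438 and 1043 CPM. Old sedentary libraries 1, 2 and 4 held the lowest 3 values of all 16, and old sedentary library 3 lay beside the lowest young sedentary library. The log2 fold change with training in old rats was 1.17 (SE 0.23, edgeR adjusted p = 0.00295), a larger value than in 98.2% of the genes tested. Without old sedentary library 3 it was 1.53 (adjusted p = 7.01e-06), and in young rats it was 0.40 (SE 0.23, adjusted p = 0.234).

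Dlg4, which encodes the main scaffold of the postsynaptic density, had 722, 729.6, 576 and 717 CPM in the old trained libraries, against 418, 561, 522 and 481 CPM in the old sedentary libraries. Young trained libraries had 793, 743, 744 and 1008 CPM and young sedentary libraries 805, 692, 728 and 654 CPM. The old groups did not overlap, the young groups did, and this was the only gene of the 6 for which old sedentary library 3 was not the highest of its group. With training the log2 fold change of Dlg4 was 0.47 (SE 0.12, edgeR adjusted p = 0.00819) in old rats, or 0.50 without old sedentary library 3, and 0.19 (SE 0.12, adjusted p = 0.254) in young rats. Counting over the 6 genes, 5 had old trained and old sedentary ranges that did not overlap, where 9.78% of all genes lay apart in this direction.

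**Figure D3:**
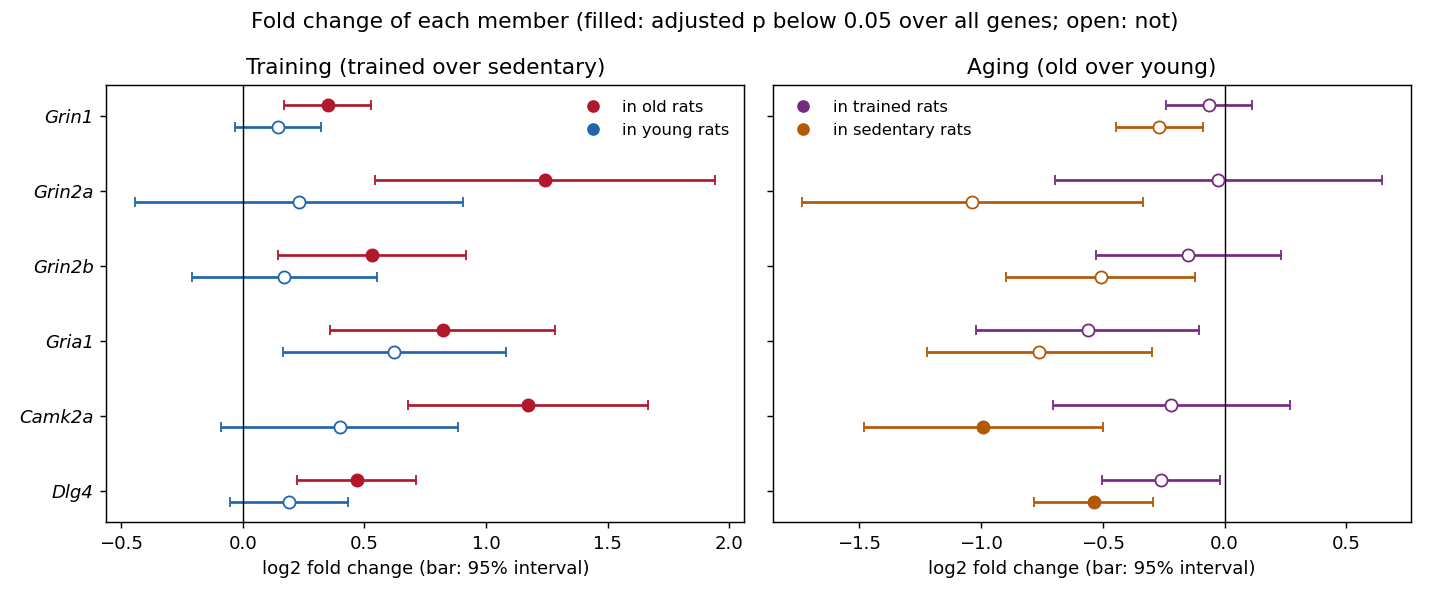
Log2 fold change (horizontal axis) with its 95% interval from edgeR for each gene, for training at each age (left) and for aging at each training state (right); filled points passed at adjusted p below 0.05 over all genes. Training in old rats has 6 filled points and training in young rats 0, and aging in sedentary rats has 2, Camk2a and Dlg4.

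Averaged over age, all 6 genes were called higher in trained rats, where 33.9% of all genes were called and 15.9% were called higher. Camk2a had the largest log2 fold change of the 6 at 0.79 (SE 0.16, edgeR adjusted p = 0.0018), followed by Grin2a at 0.74 and Gria1 at 0.72, each above the value of more than 97% of genes. Grin2b at 0.35, Dlg4 at 0.33 and Grin1 at 0.25 were above 91.1%, 90.4% and 86.0% of genes. The Grin2b call (adjusted p = 0.044) was lost on leaving out any 1 of old trained libraries 2 or 4, old sedentary library 4, young trained libraries 1, 3 or 4, or young sedentary libraries 2 or 4, with adjusted p up to 0.0888. It was also lost with scaling by library totals (adjusted p = 0.0732), with no filter on low counts (0.0717) and with the replicate number as a block (0.054).

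**Figure D4:**
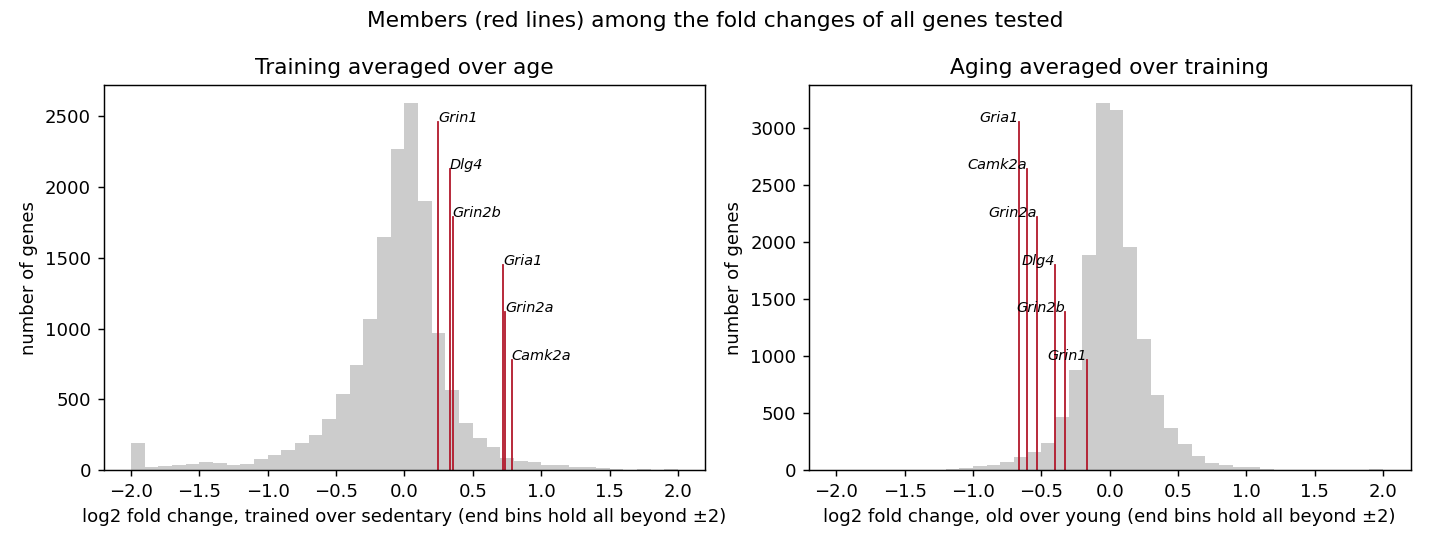
Number of genes (vertical axis) by log2 fold change (horizontal axis, bins of 0.1) for training averaged over age and for aging averaged over training, with red lines at the 6 genes. The 6 lines lie to the right of the centre for training, from 0.25 to 0.79, and to the left for aging, from -0.66 to -0.17.

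All 6 genes had negative log2 fold changes with age in sedentary rats and in trained rats. In sedentary rats Camk2a fell to 632 ± 292 CPM in old sedentary rats, against 1257 ± 195 CPM in young sedentary rats (SD, n = 4 each), which is -0.99 as log2 fold change (SE 0.23; edgeR, adjusted p = 0.0448). Dlg4 fell to 496 ± 61.1 CPM in old sedentary rats, against 719.8 ± 64.1 CPM in young sedentary rats (SD, n = 4 each), which is -0.54 as log2 fold change (SE 0.12; edgeR, adjusted p = 0.0311). These 2 of 6 genes were called, where 1.51% of all genes were called and 0.459% were called lower, and the other 4 had log2 fold changes from -1.04 (Grin2a) to -0.27 (Grin1) with adjusted p from 0.0759 to 0.134. Grin1 and Dlg4 were the 2 genes with old sedentary values all below the young sedentary values, where 3.64% of all genes lay apart in this direction.

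The count of 2 rested on single libraries. Without old sedentary library 3 all 6 genes were called, with log2 fold changes of -1.48 for Grin2a, -1.35 for Camk2a, -1.01 for Gria1, -0.63 for Grin2b, -0.56 for Dlg4 and -0.32 for Grin1, where 13.2% of all genes were called. The count was 0 of 6 without old trained library 2, old sedentary libraries 1 or 4, or young sedentary libraries 1 or 3 alone. In these refits 0.25% to 0.851% of all genes were called. Without young trained library 4 the count was 2 (1.43% of all genes called). Without any other single library it was 1, where 0.628% to 1.38% of all genes were called. The DESeq2 Wald test called 5 genes and a fit with the replicate block called 4, among which Grin2a and Gria1 were added. Over all genes the DESeq2 Wald test called 6.05% and the fit with the replicate block 3.72%, also more than the 1.51% of the main fit.

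In trained rats edgeR called 0 of 6 genes for age, where 4.98% of all genes were called and 1.65% were called lower. The DESeq2 Wald test and limma voom also called 0, where they called 8.79% and 8.55% of all genes. At an unadjusted p below 0.05 there were 2 of the 6, Gria1 and Dlg4, where 22.7% of all genes were below it. These were also the 2 genes whose old trained values all lay below the young trained values, where 8.48% of all genes lay apart in this direction. Gria1 averaged 267 ± 52.0 CPM in old trained rats, against 394 ± 41.9 CPM in young trained rats (SD, n = 4 each), which is -0.56 as log2 fold change (SE 0.22; edgeR, adjusted p = 0.139). Grin2a had nearly equal means, 50.2 ± 6.64 CPM in old trained rats and 51.2 ± 13.8 CPM in young trained rats (SD, n = 4 each), with a 95% interval of the log2 fold change from -0.70 to 0.64. The log2 fold changes of the others were -0.26 for Dlg4, -0.22 for Camk2a, -0.15 for Grin2b and -0.064 for Grin1, with edgeR adjusted p from 0.19 to 0.694.

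Averaged over training, 3 of 6 genes were called lower in old rats, where 10.5% of all genes were called and 5.03% were called lower. In this comparison the log2 fold change of Gria1 was -0.66 (SE 0.15; edgeR, adjusted p = 0.0144), that of Camk2a -0.61 (SE 0.16, adjusted p = 0.0279) and that of Dlg4 -0.40 (SE 0.08, adjusted p = 0.0067). Grin1, Grin2a and Grin2b had log2 fold changes of -0.17, -0.53 and -0.33, with adjusted p from 0.084 to 0.153. Without old sedentary library 3 all 6 genes passed, where 16.2% of all genes were called. The Camk2a call was lost without old trained library 3, old sedentary libraries 1 or 2, young trained library 4, or young sedentary libraries 1 or 3, with adjusted p from 0.0517 to 0.0609, and with no filter on low counts (0.0577).

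Placed in order of their means, the groups ran alike for 5 of the 6 genes: young trained, old trained, young sedentary, old sedentary. For Dlg4 young sedentary came before old trained. Neighbouring groups in this order overlapped in range with few exceptions. Young sedentary was apart from old sedentary for Grin1, young trained was apart from old trained for Gria1, and old trained was apart from old sedentary for Dlg4.

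The interaction compares the fold change with training in old rats with that in young rats. For it edgeR called 0 of the 6 genes and 0 of 15035 genes (0%), against 2033 genes at an unadjusted p below 0.05; limma voom called 0 genes and the DESeq2 Wald test 44, with 0 of the 6 among them. At an unadjusted p below 0.05 there were 2 of the 6, Grin2a with a log2 difference of 1.01 (SE 0.45, edgeR adjusted p = 0.356) and Camk2a with 0.77 (SE 0.32, adjusted p = 0.33). The log2 difference was 0.36 for Grin2b, 0.28 for Dlg4, 0.21 for Grin1 and 0.20 for Gria1, with edgeR adjusted p from 0.455 to 0.791. The larger fold changes in old rats are therefore not shown to differ from those in young rats. Without old sedentary library 3 both passed, Grin2a with 1.46 (adjusted p = 0.0412) and Camk2a with 1.13 (adjusted p = 0.00805), where 3.84% of all genes were called.

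The comparisons of training in old rats and of aging in sedentary rats share the old sedentary libraries. For Camk2a the log2 fold changes were 1.17 for training in old rats and -0.99 for aging in sedentary rats, and for Grin2a they were 1.24 and -1.04. A further setting, added with the values known, left out old sedentary libraries 1, 2 and 4 together, so that library 3 alone stood for the group and was assumed to vary like the others. Library 3 was the highest of its group for every gene except Dlg4. For Dlg4 it stood at 522 CPM, above the median of the libraries left out (481 CPM). Smaller log2 fold changes with training in old rats therefore followed from the choice of libraries. They were smaller than in the main fit for all 6 genes. Another added setting took as a covariate 1 surrogate variable, a variable meant to estimate unlabelled variation. Here it largely followed the groups, which explained 72.7% of its variance. Its correlation with the first principal component had a size of 0.954. As a covariate it therefore also takes up differences between the groups, so calls lost with it cannot be assigned to unlabelled variation. This setting left 0 of 6 genes called for training in old rats and for training averaged over age, where 0.02% and 1.01% of all genes were called. Without old sedentary libraries 1, 2 and 4 the log2 fold changes with training in old rats were 0.44 for Camk2a, 0.40 for Grin2a, 0.40 for Dlg4, 0.28 for Gria1, 0.22 for Grin2b and 0.21 for Grin1.

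**Figure D5:**
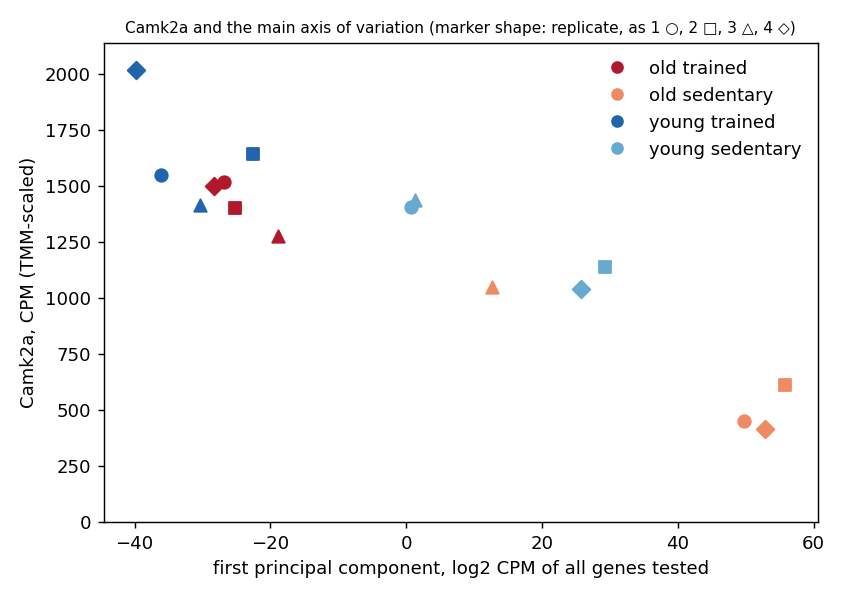
Camk2a level (CPM, vertical axis from 0) against the position of each library on the first principal component of log2 CPM of all genes tested (horizontal axis), coloured by group with marker shape for the replicate. Old sedentary libraries 1, 2 and 4, at 49.7 to 55.9, have the lowest Camk2a values, and old sedentary library 3, at 12.7, lies among the young sedentary libraries.

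The 6 genes varied together across libraries, and each also followed the main axis of all genes. Their correlations with the first principal component ran from -0.90 (Camk2a) to -0.75 (Grin2b). How far the members vary together beyond that axis was not tested. As a description over the 16 libraries, which share groups, the Pearson correlation of log2 CPM between members ran from 0.74 (Grin2a with Dlg4) to 0.92 (Gria1 with Camk2a) over the 15 pairs, with a median of 0.85. After the mean of each group was subtracted it ran from 0.30 (Grin2a with Dlg4) to 0.81 (Grin1 with Dlg4), with a median of 0.60, so part of the common variation lay within groups. The members were not each other's nearest genes. Camk2a was most like ENSRNOG00000006911, at a correlation of 0.99, and 268 genes (1.78% of 15034) were more like Camk2a than its nearest member, Gria1. For the other members between 40 and 224 genes were nearer than the nearest member. The gene most like the mean of the 6 standardised profiles was ENSRNOG00000015903, at 0.99 over the 16 libraries. Lists of other glutamate receptor subunits, AMPA receptor auxiliary proteins, CaMKII subunits and scaffold genes had been set up by symbol and could not be matched to IDs, so they were not analysed here.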

How the data were processed

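The values are raw gene counts as deposited by the authors, whole numbers per Ensembl gene ID for 16 libraries, 4 per group. Per the labels' protocols, poly(A) RNA was isolated from Trizol-extracted hippocampal RNA, libraries were made with an NEBNext kit and sequenced on an Illumina HiSeq instrument, and 5 libraries per condition are named, of which 4 per group were analysed here. Per the submitters' processing notes, the tools were TopHat2 2.1.1, HTSeq, SAMtools, Trimmomatic, FastQC and DESeq2, with build Rnor_6.0. Strand setting and annotation release are not given in the sources used here; reads of overlapping or antisense genes cannot be separated.

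Counts were filtered with filterByExpr, scaled by TMM and fitted over all 16 libraries with 1 mean per group in edgeR 4.0.16 (glmQLFit, robust; glmQLFTest, 2-sided) in R 4.3.3. Benjamini-Hochberg adjustment ran over 15035 genes, and a gene was called below 0.05. The standard error was the log2 fold change divided by the square root of F. Ratios were tested by exact permutation, within strata for averaged contrasts. No pair of libraries within a group was identical or agreed within sampling noise (chi-square per degree of freedom at least 4.43). The p-values measure the spread between rats. Alternatives used DESeq2 1.42.0, limma 3.58.1 and sva 3.50.0. The 6 genes and the lists were chosen with earlier results of these data known. All 6 were named in every comparison, with the nearest gene by correlation for at most 2 profiles, since IDs have no symbols.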

Additional observations from a re-analysis of the deposited data

Results flagged for a closer look

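Of 36 sets of 4 libraries, 6 genes and 3 ratios in 4 groups, 3 held a library far from the other 3, by the size of its gap to the nearest library relative to the group's range. Chance marks about 1 in 20 sets, and these sets reuse the same libraries. Grin2b stood at 41.3 CPM in old trained library 4, where the other old trained libraries lay between 34.4 and 35.2 CPM. Grin2b stood at 32.8 CPM in young trained library 2, where the other young trained libraries lay between 43.0 and 43.1 CPM. Dlg4 stood at 576 CPM in old trained library 3, where the other old trained libraries lay between 717 and 729.6 CPM.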

How the results depend on the processing

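Of 1158 refits of the 42 gene-level fold changes, 1030 kept direction and call, 87 lost the call, 28 gained it and 13 changed sign. The changes of sign were all in fold changes not called under that setting. With 1 surrogate variable estimated from counts scaled by size factors, 1 gene was called for aging in sedentary rats, where 1.09% of all genes were called. For the other comparisons the count stayed within 1.5 times of the main one. A surrogate variable from a null model with age, added after the data were seen, had 72.7% of its variance explained by group. The share of all genes called is given in brackets. It left 0 of 6 genes called for training in old rats (3 of 15035, 0.02%) and training averaged over age (1.01%). With this variable the count was also 0 for aging in sedentary rats (0.0599%) and aging averaged over training (2.71%), and 1 for aging in trained rats (7.7%). Under it the log2 fold changes of Grin2a and Grin2b with training turned to -0.10 and -0.030 in old rats, -0.28 and -0.045 in young rats, and -0.19 and -0.037 averaged over age, that of Grin2a with aging in trained rats to 0.0034, and the Gria1 interaction to -0.23. The Gria1 interaction was -0.34 without old sedentary libraries 1, 2 and 4, where library 3 alone stood for that group. The cause was not tested.

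For training in young rats the DESeq2 Wald test, limma voom, the replicate block and a fit to the libraries compared each called 1 gene, Gria1. They called between 18.9% and 28.8% of all genes. For aging in trained rats the fit to the libraries compared called 1, where 7.4% of all genes were called. For aging in sedentary rats the DESeq2 Wald test called 5, no filter 1, and the libraries compared 0. Of all genes these called 6.05%, 0.951% and 0.164%. Over single libraries left out, the range of the count is given with that of the share of all genes called. Training in old rats had 5 to 6 (17.4% to 29.7%), and training averaged over age 5 to 6 (28.8% to 37.1%). Training in young rats had 0 to 1 (8.5% to 19.7%), and aging in sedentary rats 0 to 6 (0.25% to 13.2%). Aging averaged over training had 2 to 6 (6.26% to 16.2%), and the interaction 0 to 2 (0% to 3.84%). The Grin2a fold change with aging in trained rats ran from -0.18 to 0.099. The labels number replicates 1 to 4 in each group without saying that a number marks a shared source. For that reason the main fit did not take the numbers to pair the libraries. Deviations from the group means were correlated above 0.1 in 12 of 24 same-numbered pairs, with a range from -0.24 to 0.48. A library correlated best with its own number in 12 of 24 cases, where picking 1 of 4 at random would give 1 in 4. Whether same-numbered libraries share a source was not tested. The replicate block called 4 genes for aging in sedentary rats, where it called 3.72% of all genes, and moved Grin2a with aging in trained rats to 0.025. Gria1 in old rats was not called in a fit to the libraries compared (adjusted p = 0.0647).

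None of the ratio differences passed in any of 228 refits, 11 of which changed sign. Over single libraries left out, the log2 ratio differences with training in young rats ran from -0.036 to 0.23 for Grin2a over Grin2b, -0.033 to 0.30 for Grin2a over Grin1 and -0.056 to 0.12 for Grin2b over Grin1, and with aging in trained rats from -0.090 to 0.21 for Grin2a over Grin1. The lowest adjusted p in these refits was 0.0857 (exact permutation). It was reached without old sedentary library 3, for Grin2a over Grin2b and for Grin2a over Grin1. For both ratios this held with training in old rats, training averaged over age and aging in sedentary rats. With 3 against 4 libraries few splits are possible, so a missing call could hardly decide about stability. Contrasts averaged over age or training have more possible splits, and they did not pass either.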
